A study of Glycine max with 22 samples.

Results

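EXP4, CIM1 and XET1 encode proteins that loosen the plant cell wall. EXP4 and CIM1 are expansins and XET1 is a xyloglucan endotransglycosylase. They were chosen by gene symbol, as every soybean probe set whose single symbol, or a synonym of it, was one of these names. The choice gave 3 of 37593 soybean probe sets, 1 per gene. Their NCBI gene identifiers are 100785757 for EXP4, 548090 for CIM1 and 732603 for XET1. All 3 passed the filter on dim signal, which left 32776 soybean probe sets for testing.

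Mature leaf RNA of soybean plants (Glycine max) was read on 22 Affymetrix soybean arrays, on which a probe set reports 1 transcript or a few close relatives. In treated plants every axillary and terminal bud was taken off each day for 15 days from a plant age of 30 days, and the shoots then regrew. Treated leaves were taken after 15 days of bud removal (D15, plant age 45 days), on the fifth day of regrowth (R20, plants 50 days old) and on its fifteenth day (R30, plants 60 days old), with 3 arrays per group. Untreated plants kept beside them in the same growth chambers gave C15, C20 and C30 at those ages (3 arrays each) and C0 at an age of 30 days (4 arrays), and the labels do not say how many plants a sample holds.

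A growing plant cell is held by a wall in which cellulose fibrils are tied together by other polysaccharides, among them xyloglucan. Expansins loosen the contacts between these polymers without cutting them, and xyloglucan endotransglycosylases cut a xyloglucan chain and join the cut end to another chain. Both kinds of protein are known for acting in organs that expand. A mature leaf has largely stopped expanding, while the shoot tips and axillary buds, which were the tissues removed here, hold young expanding cells. CIM1 takes its name from its induction by cytokinin in cultured soybean cells, and cytokinins are hormones of bud outgrowth.

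Signals are the deposited array intensities, scaled to a common mean on every array and given without unit. A floor per array, the 95th percentile of 23350 probe sets for an oomycete and a nematode on the same array, lay between 11.8 and 22.1, and a signal under it is not distinguished from background. Fold changes are differences of mean log2(signal + 1) with standard errors (SE) from limma fitted over all 22 arrays, and p-values were adjusted over all 32776 probe sets. A called probe set is one whose adjusted p lay under 0.05. The 3 genes were proposed with results of these arrays in view. A comparison in which a gene was called, or one that shares arrays with it, is therefore given as a description without a p. A call stated there may be what led to the choice and is no test of the gene. The comparison that led to CIM1 and XET1 is not recorded, so a p that is given for them may also depend on the choice.

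By mean correlation, 11 of the 22 arrays were nearer to another group than to the other arrays of their own, among them all C15, R20 and C30 arrays. C15 replicate 1 had the widest such gap, with 0.915 to the D15 arrays against 0.831 to the other C15 arrays, followed by C15 replicate 3 (0.910 to C20 against 0.846) and C30 replicate 1 (0.868 to C20 against 0.814). C0 replicate 4 had 0.876 to the C15 arrays against 0.841 to the other C0 arrays. R20 replicate 3 had a median soybean signal of 38.2, against 57.1 to 81.3 on the other arrays, and 60.3% of its soybean probe sets were above its floor. Its actin 3' over 5' signal ratio, a measure that increases with RNA degradation, was 136 in one control set, against 2.29 to 8.37 on the other arrays, but 8.28 in a second actin set, against 5.32 to 56.1. The highest ratios of the second set were on D15 replicates 2 (56.1) and 1 (37.2), and the lowest was on C0 replicate 4. In the first set these arrays had 2.94, 2.29 and 8.27. The part of RNA quality in the results was not tested. The ratio of the hybridisation controls BioC and BioB was 2.39 to 2.89 on the R20 and C20 arrays and 0.948 to 1.20 on the others, so comparisons of R20 with D15 and of C20 with C0 lie across that split and the same-age comparisons do not.

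CIM1 signal separated treated from untreated leaves. On the 9 arrays of D15, R20 and R30 it lay between 30.1 and 607, with a median of 212, and each exceeded its own floor. On the 13 untreated arrays it lay between 0.253 and 23.0, with a median of 14.5, and 5 of the 13 exceeded their floor. The lowest treated array was thus above the highest untreated one, a separation shown by 149 of the tested probe sets (0.455%). In bulk leaf RNA, fewer cells of a type and less RNA per cell cannot be told apart.

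**Figure D1:**
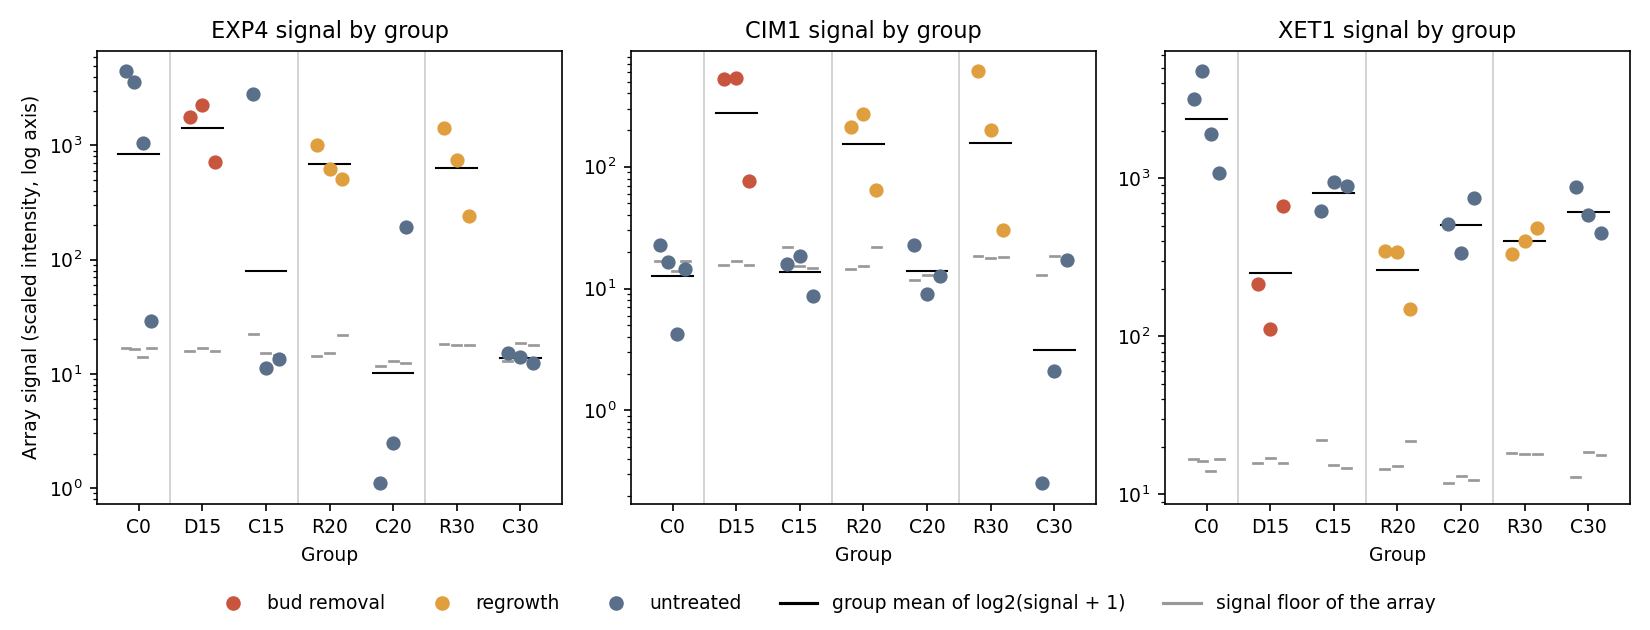
Signal of EXP4, CIM1 and XET1 on each array (log axis, deposited intensity), by group, with 1 point per array, black bars for the mean of log2(signal + 1) of a group and grey dashes for the floor of each array. All 9 treated arrays lie above all 13 untreated arrays for CIM1, while EXP4 is high on the treated arrays, on most C0 arrays and on 1 C15 array, and XET1 is highest in C0.

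At the end of bud removal, CIM1 had signals of 525, 537 and 76.0 in D15 leaves, against 15.8, 18.7 and 8.63 in C15 leaves. The groups did not overlap, although D15 replicate 3 lay well under the other D15 arrays. The log2 fold change was 4.25 ± 1.03 (SE, n = 3 arrays each, unadjusted 95% interval 2.09 to 6.40). It missed the threshold, with an unadjusted p of 0.000569 and a limma adjusted p of 0.0910. Since CIM1 was chosen with results of these arrays in view, this p may depend on that choice. In this comparison 74 probe sets were called (0.226%), and 8.63% had every D15 array above every C15 array. The adjusted p of CIM1 lay between 0.0303 and 0.357 over 14 alternative settings, and without C15 replicate 1, the array that resembled D15, the change was 4.34 ± 1.18 with a limma adjusted p of 0.0496.

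After 5 days of regrowth, CIM1 had 212, 272 and 64.3 in R20 leaves, against 22.8, 9.01 and 12.7 in C20 leaves. The groups did not overlap, and the lowest R20 value came from replicate 3, the array of low median signal. The log2 fold change was 3.40 ± 1.03 (SE), and 4.02 without that array. It was 2.99 without R20 replicate 2, and 2.52 with a pseudocount of 16 in place of 1. The C20 value of 9.01 lay under its floor. CIM1 was among the called probe sets here, as were 17.8% of all those tested, and 15.5% had every R20 array above every C20 array. The median log2 fold change over all probe sets was -0.27 in this comparison.

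After 15 days of regrowth, CIM1 had 607, 200.6 and 30.1 in R30 leaves, against 0.253, 2.12 and 17.3 in C30 leaves. No C30 array exceeded its floor, so the difference is a bound of at least 9.08-fold, the fitted log2 value being 5.23 ± 1.03. CIM1 was called, as were 2.22% of the probe sets, and 13.1% had every R30 array above every C30 array. The treated groups themselves overlapped. Mean CIM1 signal was 379 ± 263 in D15, 183 ± 107 in R20 and 279 ± 296 in R30 (SD, n = 3 each), and both regrowth groups had a log2 difference of -0.84 ± 1.03 (SE) to D15.

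Without treatment CIM1 stayed near background at every age. Its mean signal was 14.6 ± 7.78 in C0 (SD, n = 4), 14.4 ± 5.18 in C15, 14.8 ± 7.12 in C20 and 6.57 ± 9.36 in C30 (SD, n = 3 each). The difference of C15 to C0 was 0.11 ± 0.97 on the log2 scale (adjusted p = 0.986 by limma, n = 3 and 4 arrays). In order of mean log2 signal the groups ran D15, R30, R20, C20, C15, C0 and C30, with a gap of 3.40 between R20 and C20. That was the only pair of neighbours in the order whose arrays did not overlap.

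EXP4 was also high on every treated array, between 238 and 2277 with a median of 738. Unlike CIM1, it was high in part of the untreated leaves as well. Untreated arrays ran from 1.10 to 4453 with a median of 15.1, and 7 of the 13 exceeded their floor. In order of mean log2 signal the groups ran D15, C0, R20, R30, C15, C30 and C20, and each group overlapped the next one in the order.

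In C0 leaves, EXP4 had 4453, 3594, 1051 and 28.7, where the low value is that of replicate 4, the C0 array that resembled C15. In the older controls it had 2835, 11.3 and 13.5 in C15, 1.10, 2.47 and 195 in C20 and 15.1, 14.0 and 12.5 in C30. The 3 high C0 arrays thus had a counterpart in 1 C15 array, replicate 1. The other older control arrays were at or under 15.1 except C20 replicate 3.

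The log2 difference of EXP4 was -3.40 ± 1.78 for C15 to C0, -6.22 ± 1.78 for C20 to C0 and -5.82 ± 1.78 for C30 to C0 (SE). EXP4 was called in C20 against C0, as were 6.26% of all probe sets. It was not called in C30 against C0, in which 4.35% of all probe sets were called and 7.14% had every C30 array under every C0 array, as EXP4 did. Limma called 0 probe sets in C15 against C0 (0%), where 3124 had an unadjusted p under 0.05, and 2.72% had every C15 array under every C0 array. Without C0 replicate 4 the 3 differences of EXP4 were -5.01, -7.83 and -7.43, and without C15 replicate 1 the first was -5.98. In C20 against C0, 10.3% of the probe sets had every C20 array under every C0 array, which EXP4 did not, since C20 replicate 3 lay above C0 replicate 4.

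Against controls of the same age, EXP4 had 1788, 2277 and 715 in D15 leaves and 2835, 11.3 and 13.5 in C15 leaves. C15 replicate 1 was the highest of all 6 arrays, so the groups overlapped. The log2 fold change was 4.16 ± 1.91 (SE, unadjusted 95% interval 0.18 to 8.15), with an unadjusted p of 0.0414 and a limma adjusted p of 0.396. Without C15 replicate 1 it was 6.74 ± 1.73 with a limma adjusted p of 0.0389. Without C15 replicate 3 it was 2.93 with a limma adjusted p of 0.920, and the lowest adjusted p over the 14 alternative settings was 0.00537.

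In regrowth EXP4 had 1010.1, 627 and 509 in R20 leaves, against 1.10, 2.47 and 195 in C20 leaves. Every R20 array was above every C20 array, as for 15.5% of all probe sets. EXP4 was called, as were 17.8% of all probe sets. Its log2 difference was 5.93 ± 1.91 (SE), or 7.99 without C20 replicate 3. The first 2 C20 values lie under their floor, and with a pseudocount of 16 in place of 1 the log2 difference was 4.12. EXP4 had 1410.0, 738 and 238 in R30 leaves, against 15.1, 14.0 and 12.5 in C30 leaves. The 3 C30 values lay close together near the floor and far under the lowest R30 value. Of all probe sets, 13.1% had every R30 array above every C30 array. The log2 fold change was 5.41 ± 1.91 (unadjusted 95% interval 1.42 to 9.39) with a limma adjusted p of 0.172, and the adjusted p ran from 0.00940 to 0.516 over 14 alternatives. It was under the threshold in 2 of these, one fitted on the R30 and C30 arrays alone.

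The change of EXP4 in R30 over C30 minus its change in D15 over C15 was 1.24 ± 2.70 on the log2 scale (95% interval -4.39 to 6.88, limma adjusted p = 1.0). That interval is wide enough to hold large differences in either direction. Over all probe sets limma called 0 for this difference (0%), with 733 at an unadjusted p under 0.05. Between treated groups, EXP4 in R30 had a log2 difference to D15 of -1.18 ± 1.91 (limma adjusted p = 0.999), and R20 one of -1.06 ± 1.91. Limma called 0 probe sets in R20 against D15 (0%) and in R30 against D15 (0%), with 4947 and 1935 at an unadjusted p under 0.05.

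**Figure D2:**
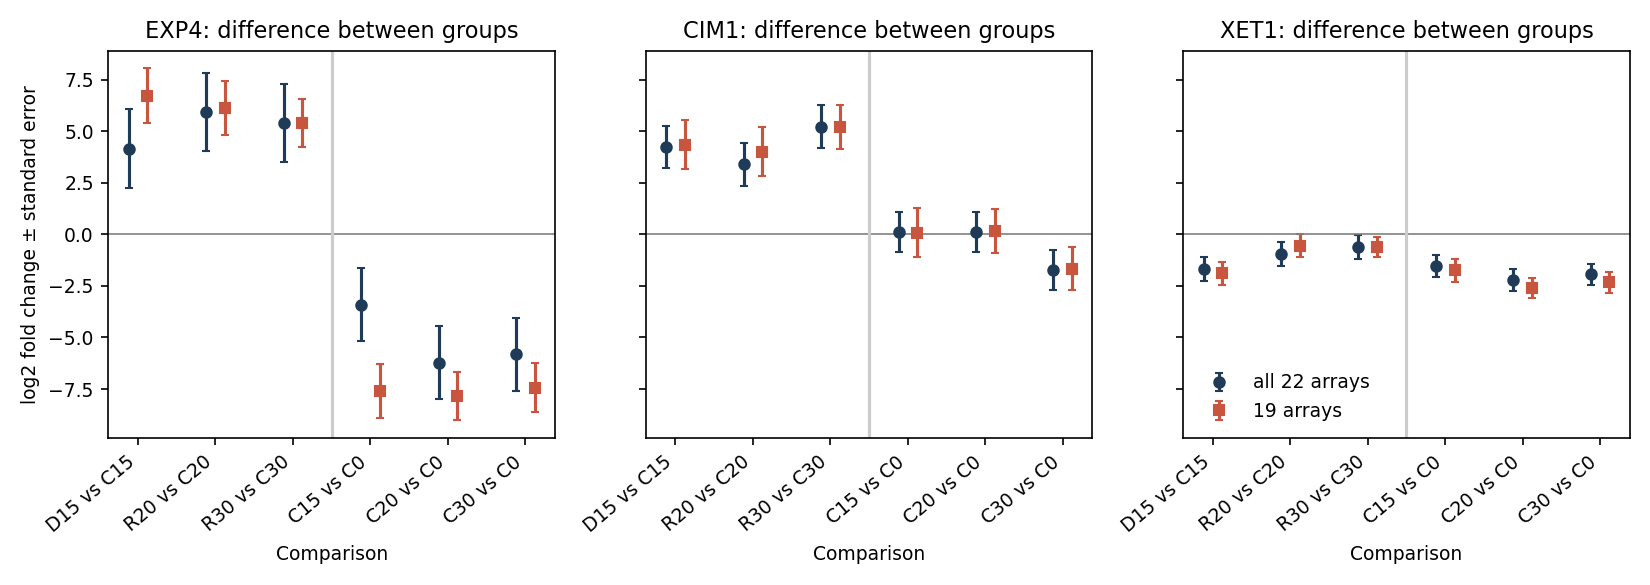
Log2 fold changes of EXP4, CIM1 and XET1 with standard errors from limma, for each treated group over its control of the same age and for each older control over C0, fitted on all 22 arrays (circles) and with C15 replicate 1, C0 replicate 4 and R20 replicate 3 left out (squares, marked 19 arrays). The same-age values are above 0 for both expansin genes and below 0 for XET1, and the age values are below 0 for EXP4 and XET1.

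XET1 differed from both expansin genes in being well above the floor on all 22 arrays and in having its highest signal in the youngest untreated leaves. It had 3181, 4739, 1910.5 and 1078 in C0 leaves, where the lowest was again replicate 4. It had 617, 944 and 897 in C15, 512, 337 and 753 in C20 and 877, 581 and 452 in C30. Every older control array was under every C0 array, as for 2.72% of all probe sets in C15, 10.3% in C20 and 7.14% in C30. The log2 difference to C0 was -1.55 ± 0.53 in C15, -2.22 ± 0.53 in C20 and -1.94 ± 0.53 in C30 (SE). XET1 was called in C20 and C30, as were 6.26% and 4.35% of all probe sets. Without C0 replicate 4 the values were -1.93, -2.59 and -2.32.

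At the end of bud removal, XET1 had 213, 110.5 and 666 in D15 leaves, against 617, 944 and 897 in C15 leaves. D15 replicate 3 lay above C15 replicate 1, so the groups overlapped. The log2 fold change was -1.68 ± 0.57 (SE, unadjusted 95% interval -2.86 to -0.50), with an unadjusted p of 0.00772 and a limma adjusted p of 0.214. Since XET1 was chosen with results of these arrays in view, this p may depend on that choice. Over 14 alternatives the adjusted p ran from 0.0430 to 0.675, and the lowest came with C15 replicate 1, C0 replicate 4 and R20 replicate 3 left out together, a set chosen after seeing the data, where the change was -1.87.

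In regrowth XET1 had 345, 343 and 149.8 in R20 leaves, against 512, 337 and 753 in C20 leaves, and 329.7, 402 and 487 in R30 leaves, against 877, 581 and 452 in C30 leaves. Both pairs of groups overlapped. The log2 fold changes were -0.96 ± 0.57 in R20 and -0.61 ± 0.57 in R30 (SE). The R20 value was -0.56 without R20 replicate 3 and -0.48 when the arrays were centred on their median.

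XET1 was called in none of the same-age comparisons. Its difference to D15 was 0.06 ± 0.57 in R20 (limma adjusted p = 0.972) and 0.68 ± 0.57 in R30 (limma adjusted p = 0.986). In order of mean log2 signal the groups ran C0, C15, C30, C20, R30, R20 and D15. The 4 untreated groups thus stood before the 3 treated ones, and only the gap of 1.55 between C0 and C15 was without overlap.

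Within the treated leaves the signals of the expansin genes varied together from array to array. Over the 9 treated arrays EXP4 and CIM1 had a Pearson r of 0.906 and a Spearman rho of 0.850 on the log2 scale, and replicate 3 had the lowest value of both genes in each treated group. Over the 13 untreated arrays r was 0.198 and rho 0.011, where most CIM1 values lie under the floor. These are descriptions. The points share arrays, scaling and groups.

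XET1 and EXP4 had opposite signs of correlation in the treated and untreated leaves. Over the 9 treated arrays r was -0.522 and rho -0.500, and over the 13 untreated arrays r was 0.747 and rho 0.698, where both were highest on C0 arrays. For CIM1 and XET1 r was -0.428 over the treated and 0.129 over the untreated arrays.

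**Figure D3:**
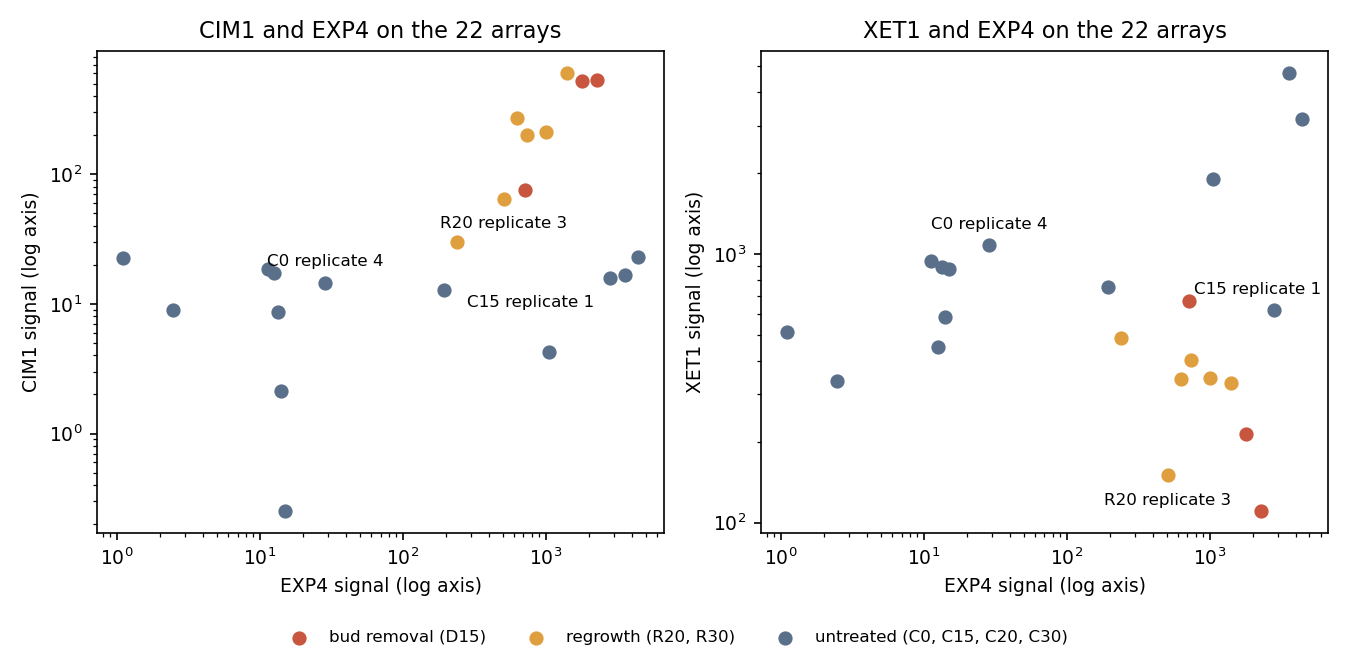
CIM1 signal (left) and XET1 signal (right) against EXP4 signal on the 22 arrays, both axes logarithmic, 1 point per array, coloured by bud removal, regrowth and untreated. Treated arrays form a rising band for CIM1 and EXP4 (r = 0.906, n = 9), and C0 replicate 4, C15 replicate 1 and R20 replicate 3, the arrays left out together in 1 alternative, are labelled.

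Among 899 other genes with an informative name, those most like EXP4 over the 22 arrays, by Pearson r of log2 signal, were DD2/63 (0.935), the gibberellin-regulated GASA9 (0.909), SS (0.903), the vegetative storage protein gene VSPA (0.901) and the plasma membrane aquaporin gene PIP2-9 (0.898). DD2/63 kept a like r within the 9 treated arrays (0.896) and the 13 untreated ones (0.926). VSPA had 0.111 within the treated arrays and 0.909 within the untreated ones. The genes most like CIM1 were SOD1 (0.814), SGT3 (0.814), PHANa (0.807), SGT2 (0.806) and CBP (0.797). Within the untreated arrays their r with CIM1 was between 0.005 and 0.377, and within the treated arrays CBP had 0.944. Those most like XET1 were COL10 (0.797), of the CONSTANS-like family of transcriptional regulators, the fatty acid synthesis gene KASII-A (0.767), G (0.727), DREB1 (0.711) and DXR2 (0.699). COL10 had an r of 0.770 within the treated arrays and 0.729 within the untreated ones.

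The arrays carry 9 other tested genes of the lists of wall and cytokinin genes: the expansin genes EXP1 and EXP2, the xyloglucan endotransglycosylase/hydrolase gene XTH1, the endoglucanase gene CEL12, the proline-rich wall protein genes PRP1, PRP2, PRP3 and SBPRP, and CKX3, which encodes a cytokinin oxidase that degrades cytokinin. Each gene is given by its probe set of highest mean signal. In D15 against C15, limma called 0 of the 9, with 3 at an unadjusted p under 0.05 (11.9% of all probe sets) and a median log2 fold change of 1.67 beside -0.04 over all probe sets. In R20 against C20, 2 of the 9 were called, both higher, beside 17.8% of all probe sets, with a median of 1.12 beside -0.27. That median is the value of PRP1, which exceeded its floor on 1 R20 array, replicate 3, and on no C20 array, so it rests on background values. In R30 against C30, limma called 0 of the 9, with 3 at an unadjusted p under 0.05 (14.4% of all probe sets) and a median of 1.43 beside 0.05. With any probe set of a gene counted, 2 of the 9, PRP2 and PRP3, had 1 called higher in R30.

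CKX3 was higher in R20 leaves, where it had 155, 106 and 59.7, than in C20 leaves, where it had 7.78, 6.65 and 6.48. Its mean signal of 6.97 in C20 was under those of the other controls, 23.6 in C0, 33.2 in C15 and 29.1 in C30. Against controls of the same age it was not called in D15 (1.66 ± 0.67, limma adjusted p = 0.315) or in R30 (0.35 ± 0.67, limma adjusted p = 0.855). No C20 array exceeded its floor, so the difference of R20 to C20 is at least 7.49-fold (fitted log2 value 3.66 ± 0.67, limma adjusted p = 0.00250), and it stayed called without any one of the 6 arrays. PRP3 was called higher as well, with a mean of 12526 ± 4270 in R20 leaves against 6774 ± 410 in C20 leaves (SD, n = 3 each), a log2 fold change of 0.84 ± 0.25 with a limma adjusted p of 0.0304. PRP3 was no longer called without any one C20 array (limma adjusted p 0.0656, 0.106 and 0.0644) or without R20 replicate 3, where the change was 0.58 (limma adjusted p = 0.152). After quantile normalisation the change was 0.0023 (limma adjusted p = 0.996), so this call depends on the scaling. A second PRP3 probe set was called higher in R20, at 0.79 ± 0.19 (limma adjusted p = 0.0122), and in R30, at 0.86 ± 0.19 (limma adjusted p = 0.0224), where the first missed the threshold at 0.88 ± 0.25 (limma adjusted p = 0.0818).

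EXP2 had high signals on many of the arrays on which EXP4 was high, and its changes over all 22 arrays did not pass the threshold. It had 362, 357 and 397 in D15 leaves against 640.4, 33.4 and 5.73 in C15 leaves, and 237, 196 and 97.7 in R20 leaves against 40.3, 14.8 and 6.71 in C20 leaves. As for EXP4, C15 replicate 1 was the highest of the C15 and D15 arrays. The log2 fold change was 2.82 ± 1.15 in D15 (limma adjusted p = 0.326) and 3.28 ± 1.15 in R20 (limma adjusted p = 0.0541). Without C15 replicate 1, EXP2 was called in D15 against C15 with a limma adjusted p of 0.0122. In R20 against C20 it was called after quantile normalisation (limma adjusted p = 0.0448), after median centring (0.0284), in the fit on those groups alone (0.0407) and in 2 further settings, and its other probe sets were called in neither comparison.

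XTH1 belongs to the same enzyme family as XET1, and its same-age values had the opposite sign. Its log2 fold change was 2.19 ± 1.18 in D15 (limma adjusted p = 0.488), 2.35 ± 1.18 in R20 (0.166) and 2.46 ± 1.18 in R30 (0.349), none past the threshold. XTH1 exceeded the floor on only 1 array in each of C15, C20 and C30, so these values rest partly on background. Its mean signal in C0 leaves, 104 ± 131 (SD, n = 4), came mostly from 1 array at 291. EXP1 exceeded the floor on 3 C0 arrays and 1 R30 array only, and PRP1 on 1 R20 and 2 R30 arrays.

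PRP2 had 13825, 7111 and 892 in R30 leaves, against 1342, 362 and 192 in C30 leaves. The R30 replicate with the lowest value overlapped the highest C30 array, and the log2 fold change of 3.29 ± 0.89 missed the threshold (limma adjusted p = 0.0583). A second PRP2 probe set passed it, at 3.45 ± 0.90 (limma adjusted p = 0.0495), with 5146 ± 4107 in R30 and 620 ± 727 in C30 leaves (SD, n = 3 each).

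Between ages, limma called 0 of the 9 in C15 against C0, with 1 at an unadjusted p under 0.05 (9.53% of all probe sets, median -0.95), and 0 in C20 against C0, with 6 at an unadjusted p under 0.05 (24.8% of all probe sets, median -1.27 beside 0.19 over all). The median of -0.95 is the value of PRP1, which exceeded its floor on no C15 or C0 array, so it rests on background values. In C30 against C0, 1 of the 9 was called beside 4.35% of all probe sets. It was CEL12, lower at 175 ± 51.1 in C30 (SD, n = 3) against 854 ± 578 in C0 (SD, n = 4), with a log2 fold change of -1.95 ± 0.54 and a limma adjusted p of 0.0444. Of its 6 probe sets 2 were called, both lower, and the second PRP3 probe set was called lower too (-0.70 ± 0.18, limma adjusted p = 0.0329). The median of the 9 was -1.11. Without any one array other than C0 replicate 4, CEL12 was no longer called, at limma adjusted p-values between 0.0546 and 0.174. The SBPRP signal in C0 was split, at 9723 and 6573 on 2 arrays and 23.1 and 35.9 on the other two.

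**Figure D4:**
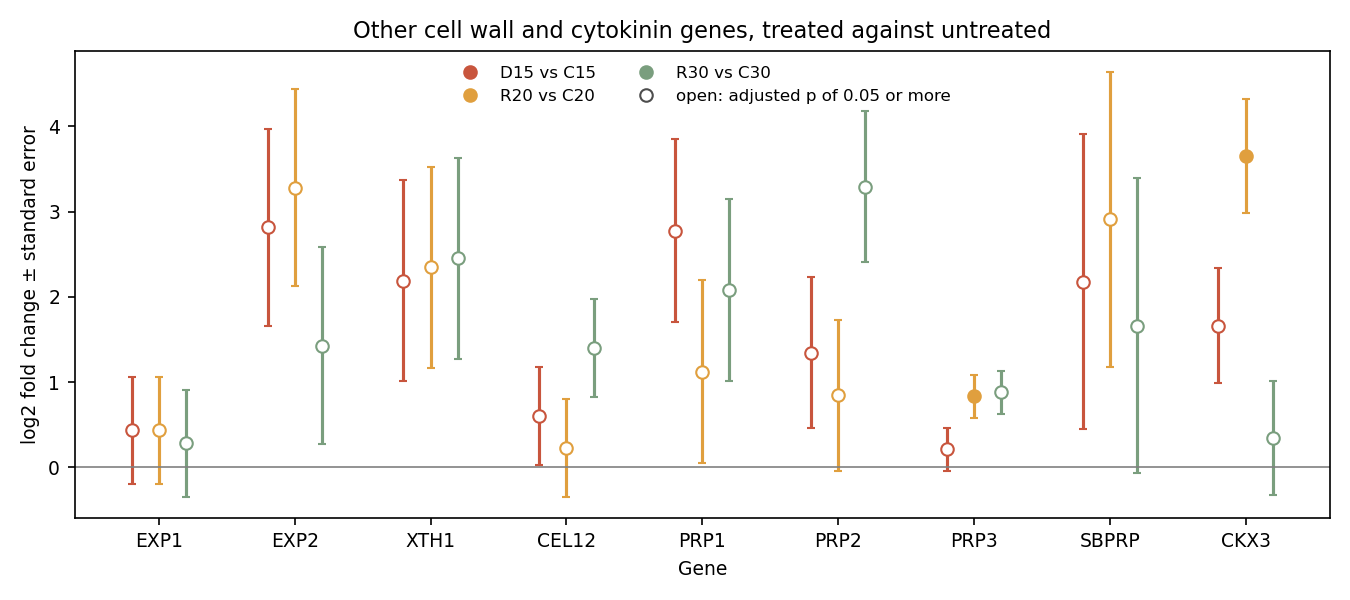
Log2 fold changes with standard errors from limma for the 9 other wall and cytokinin genes in the comparisons of treated leaves with controls of the same age. Each gene is shown by its probe set of highest mean signal. Filled points, CKX3 (3.66) and PRP3 (0.84, but 0.0023 after quantile normalisation) in R20 against C20, were called, and open points were not.

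The labelled tissue was checked with genes of the photosynthetic leaf. The 6 marker genes found by symbol, CAB3, LHCP and 4 of rubisco activase, were above the floor on all 22 arrays. In R20 against C20, 2 of the 6 rose, beside 17.8% of all probe sets called. CAB3, which encodes a chlorophyll-binding protein of the light-harvesting antenna, had 13345 ± 1663 in R20 and 4509 ± 2186 in C20 leaves (log2 fold change 1.69 ± 0.32, limma adjusted p = 0.00292). LHCP, another antenna gene, had 9254 ± 1449 in R20 and 501 ± 342 in C20 leaves (4.50 ± 0.71, limma adjusted p = 0.000943).

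The summed signal of the 6 was 27287 to 28379.8 on the R20 arrays and 5409 to 12971 on the C20 arrays. It was 24229 to 33559 in D15 and 14809 to 35366 in C15, and 22064 to 28295 in R30 and 8785 to 21535 in C30. In C0 it was 27227 to 43297. In C20 against C0, 4 of the 6 were called, all lower, beside 6.26% of all probe sets, and 1 of the 6, LHCP, in C30 against C0, beside 4.35%. The sums did not overlap in R20 against C20, in R30 against C30, or between C0 and either C20 or C30. Among single probe sets, every treated array was above every control array for 15.5% in R20 against C20 and 13.1% in R30 against C30. Every later array was under every C0 array for 10.3% in C20 and 7.14% in C30. Bright genes weigh most in the sums, with R20 means of 13345 for CAB3 and 9254 for LHCP. No rubisco activase gene was called in R20 against C20. In R30 against C30, limma called 0 of the 6, beside 2.22% of all probe sets. Their log2 fold changes there ran from -0.01 for RCA11 to 2.56 for LHCP. RCABETA went the other way with age, at 0.17 in C20 and 0.26 in C30 against C0. The sums, but not every marker, thus moved beside the CIM1 and EXP4 values of R20 and R30 against their controls. They also moved beside the EXP4 and XET1 values of C20 and C30 against C0. The part of the leaf markers in these results was not tested.

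For young dividing tissue, the kind that makes up a bud, PCNA, which encodes the sliding clamp of DNA replication, was the 1 marker found. It had 354 ± 128 in D15 and 160 ± 58.3 in C15 leaves (log2 fold change 1.14 ± 0.38, limma adjusted p = 0.205), 151 ± 56.8 in R20 and 153 ± 27.1 in C20, and 189 ± 21.6 in R30 and 142 ± 26.1 in C30 (SD, n = 3 each), against 186 ± 65.3 in C0 (n = 4). These values are from the brightest of 4 tested PCNA probe sets, which was above the floor on every array. In the others, the log2 difference of R20 to C20 was -2.09 ± 0.73, -1.46 ± 0.54 and -1.62 ± 0.86 (SE). In D15 against C15 it was 1.62 ± 0.73, 0.63 ± 0.54 and 0.44 ± 0.86. In R30 against C30 it was 0.15 ± 0.73, -0.04 ± 0.54 and -0.94 ± 0.86. None of these was called. The part of dividing tissue in the CIM1 and EXP4 values was not tested.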

How the data were processed

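Leaf RNA was labelled with biotin and hybridised to Affymetrix soybean arrays, per the labels' protocols. The deposited values are 1 linear intensity per probe set and array for 61170 probe sets, which the authors had scaled, since every array has a 2% trimmed mean between 125.009 and 125.015. The software behind these values was not given in the sources used here. Groups and replicate numbers came from the sample titles. Per the series' design text the time course was run 3 times, but no label ties a sample to a run, and nothing says how many plants a sample holds, so p-values cover the spread between these samples, and 3 or 4 arrays per group limit the precision. The highest correlation between 2 arrays was 0.961.

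Testing was limited to soybean probe sets above the floor on at least 3 of 22 arrays. The model was fitted with limma 3.58.1 (R 4.3.3) to log2(intensity + 1), with 1 coefficient per group, an eBayes variance trend and Benjamini-Hochberg adjustment. Adding 1 shrinks the fold changes of dim genes, but values under the floor can still make a fitted fold large. For CIM1 in R30 against C30 the fitted value was 37.6-fold, where the bound was 9.08-fold. Where no array of a group exceeded its floor, the fold is a bound against the floor or, where higher, the probe set's own signal. The pipeline was tested on simulated data. Alternatives were a pseudocount of 16, no filter on dim probe sets, quantile normalisation, median centring, fits on the compared groups alone, no variance trend, a replicate block and leaving out each array.

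The members and lists were chosen with earlier results of these data known. The comparison that led to CIM1 and XET1 is not recorded, so p-values were withheld from every comparison in which a member was called and from those sharing its arrays, which is stricter than planned. The genes named beside the members were the 5 of highest correlation with each, the called genes of each list (at most 3) or else its gene of smallest p, plus others given by their values. The name table holds symbols and no descriptions, so lists were matched by symbol: 8677 soybean probe sets had 1 symbol, 370 several and 28546 none. No cellulose synthase gene was matched, and PG7, a polygalacturonase symbol, did not pass the filter. LHCP and PCNA are synonyms of LOC547819 and LOC548079. No coordinates or sequences are given.

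The correlations of deviations from the group means of same-numbered samples lay between -0.158 and 0.272 in the same-age comparisons and between -0.322 and 0.470 in those with C0. No comparison had all 3 above 0.1, so the numbers were not taken to pair the samples. The treated groups were not compared with each other in this way.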

Additional observations from a re-analysis of the deposited data

How the results depend on the processing

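The same-age fold changes of EXP4, CIM1 and XET1 kept their sign in all 126 recomputations. Over all comparisons the sign changed in 2 of 134 for EXP4, 7 of 134 for CIM1 and 4 of 134 for XET1, in values that had not been called. Leaving out 1 array at a time gave 2.82 to 6.74 for EXP4 and 3.77 to 5.17 for CIM1 in D15 against C15, on the log2 scale. The count of the 9 other genes called ran from 0 to 1 in D15 against C15, from 1 to 2 in R20 against C20, from 0 to 1 in R30 against C30 and from 0 to 3 in both C20 and C30 against C0. With a pseudocount of 16 the CIM1 value was 3.33 in D15 against C15, past the threshold, and 3.10 in R30 against C30, and EXP4 was 4.12 in R20 against C20. A fit on the compared groups alone kept EXP4 at 5.41 in R30 against C30, past the threshold, and called 0 of the 9 in C30 against C0 and 1 in R30 against D15. Without a variance trend 1 was called in R20 against C20 and 0 in C30 against C0. The replicate numbers were not taken to pair the samples. With the replicate block, in which C0 replicate 4 carries no weight, 2 of the 9 were called in R30 against C30, 1 in C15, 4 in C20 and 4 in C30 against C0. Leaving out C15 replicate 1, C0 replicate 4 and R20 replicate 3 together was chosen after seeing the data, and other arrays, such as C15 replicate 3, were as far from their groups. It gave 6.74 for EXP4, 4.34 for CIM1 and -1.87 for XET1 in D15 against C15, all past the threshold, 5.41 for EXP4 in R30 against C30, past it too, and -7.58 for EXP4 in C15 against C0. It called 2 of the 9 in D15, 3 in R30, 2 in C15, 4 in C20 and 4 in C30, each against its control or C0.

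The number of probe sets called in D15 against C15 was 74. It ran from 1 to 1135 when 1 array was left out, the highest without C15 replicate 1, and from 0 to 3332 under the other settings. In R20 against C20 it was 5843, with 1552 to 6355 and 2072 to 7031, in R30 against C30 729, with 190 to 1132 and 513 to 1944, in C20 against C0 2051, with 379 to 3797 and 1461 to 7637, and in C30 against C0 1426, with 351 to 3023 and 72 to 5093. In C15 against C0 it was 0, with 0 to 117 and 0 to 2816. The causes were not tested. Another choice of probe set could not be run for EXP4, CIM1 and XET1, which have 1 each. Signals of CIM1 in untreated leaves and of EXP4 in C30 lie near the floor, so their differences among themselves were not detectable.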
